A study of Mus musculus with 36 samples.

Results

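Desmosomes are spot-like junctions that hold neighbouring cells together and anchor their intermediate filaments. Desmosomal cadherins (desmogleins and desmocollins) bind across the gap between cells, armadillo proteins (plakoglobin and the plakophilins) sit on the cadherin tails, and desmoplakin ties this plaque to keratin or desmin filaments. They are known best from skin and heart, and simple epithelia, including those of the early embryo, build them mainly from the desmoglein 2 and desmocollin 2 pair. The 10 genes described here, of 22456 genes measured in both kinds of file, were taken by symbol: Dsp, Dsg2, Dsc2, Jup, Pkp1, Pkp2, Pkp3, Pkp4, Ppl and Perp. Each symbol was found in all 12 RNA libraries.

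The libraries came from mouse cells that all lack MLL3 (MLL3-/-, gene Kmt2c), a histone H3 lysine 4 methyltransferase. The double knockout (DKO) cells were MLL3-/-;MLL4-/-, so that they lacked the related enzyme MLL4 (gene Kmt2d) too, and the f/f cells were MLL3-/-;MLL4flox/flox and kept the conditional MLL4 allele. No group with intact MLL3 is among the RNA libraries analysed here. Embryonic stem cells (ESC) were grown with LIF on irradiated fibroblast feeders, and embryoid bodies were made from them by 4 days in suspension without LIF. DKO ESC, f/f ESC, DKO bodies and f/f bodies had 2 libraries each, 1 in each of 2 batches. The file names carry the same number after DKO on replicate 1 of the DKO bodies and on each DKO ESC library, and whether this marks 1 clone is not stated. Immortalised embryonic fibroblasts (MEF) and the same cells 20 days after lentiviral Oct4, Sox, Klf4 and c-Myc had 1 library per genotype, so that the MEF and day-20 differences have no replicate check. The 24 chromatin and input samples of the 36 in the series were not analysed here.

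Depth behind the values ran from 11370743 to 38275101 reads per library. DKO ESC had 8.89 and 10.7 of Kmt2d (replicates 1 and 2), while f/f ESC had 13.5 and 18.7. DKO bodies had 14.3 and 10.1, while f/f bodies had 16.4 and 15.4, and neither difference was called (limma, adjusted p 0.155 and 0.388). It stood at 23.5 FPKM in the MEF library labelled DKO against 14.4 FPKM in f/f, and at 24.8 FPKM in the day-20 library labelled DKO against 12.9 FPKM in f/f. Kmt2c lay between 1.8 and 3.44 in all 12 libraries. These values cover whole transcripts and do not isolate a deleted part, so they check neither label, and in the MEF and day-20 libraries Kmt2d runs against the direction of a loss. The summed level of 8 pluripotency markers was 2050 to 4250 in ESC and at most 40.0 FPKM in MEF and day-20 libraries, and that of 10 fibroblast markers was 2690 to 13300 FPKM in MEF and day-20 libraries.

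Values of ESC and bodies are given for replicate 1 and then replicate 2. Replicate 1 was deposited as RPKM (reads per kilobase of transcript, scaled to library size) and replicate 2 as FPKM (the same quantity for fragments). Because the batches were counted differently, fitted differences are taken within a batch. Where the values of 2 groups are said not to overlap, or to lie all on 1 side, RPKM is set beside FPKM. With 2 libraries per group such an order can easily arise without a difference. It carries no test, and its share over all genes was not counted. Differences are means over the 2 batches of log2(value + 1), which understates the change of low genes, with the standard error (SE) of a limma model fitted to 12466 genes. A gene was called at a Benjamini-Hochberg adjusted p under 0.05. The labels do not tell whether replicates were grown as separate cultures, so p-values here measure only the spread between the samples, which may be technical. In mixed cell populations such as embryoid bodies, fewer cells of a type and less RNA per cell cannot be told apart.

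Promoter windows, reaching from 250 bases before the start site to 50 after it, were taken from the RefSeq table for build GRCm38.p6. They are shown for 3 of the 10 genes. No window was found for Pkp1, Pkp2, Pkp3, Ppl and Perp, and Dsg2 and Dsc2 were left out of the search. The search therefore does not cover the cadherins. Of the genes tested in bodies, Dsp had the largest fall, Jup the lowest adjusted p and Pkp4 the smallest difference. Capitals mark every match, on either strand, to the motifs searched, with the complement of GGGCGG printed as CCGCCC. The windows lie at chr13:38151044-38151343 on the plus strand (Dsp), chr11:100397741-100398040 on the minus strand (Jup) and chr2:59160600-59160899 on the plus strand (Pkp4), each printed 5′ to 3′ along its gene.
Dsp: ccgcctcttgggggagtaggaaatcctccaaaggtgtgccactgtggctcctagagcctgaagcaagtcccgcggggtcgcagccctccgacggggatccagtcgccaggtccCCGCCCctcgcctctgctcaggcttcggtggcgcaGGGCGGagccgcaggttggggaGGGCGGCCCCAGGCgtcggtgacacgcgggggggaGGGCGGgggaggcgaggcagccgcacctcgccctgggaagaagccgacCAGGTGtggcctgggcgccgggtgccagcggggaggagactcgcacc
Jup: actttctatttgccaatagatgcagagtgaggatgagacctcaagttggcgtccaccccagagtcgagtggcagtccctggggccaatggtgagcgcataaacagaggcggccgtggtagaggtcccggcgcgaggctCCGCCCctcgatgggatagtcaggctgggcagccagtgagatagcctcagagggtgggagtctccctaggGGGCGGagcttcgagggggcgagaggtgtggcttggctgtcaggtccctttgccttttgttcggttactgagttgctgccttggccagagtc
Pkp4: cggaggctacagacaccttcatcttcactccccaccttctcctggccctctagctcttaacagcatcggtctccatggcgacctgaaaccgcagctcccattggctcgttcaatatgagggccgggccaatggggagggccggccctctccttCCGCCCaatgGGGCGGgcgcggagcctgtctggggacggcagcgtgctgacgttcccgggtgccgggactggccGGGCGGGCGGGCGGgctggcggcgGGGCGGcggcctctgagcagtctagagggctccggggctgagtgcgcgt
GGGCGG, the GC box of SP1-type factors, occurred 4 times in the Dsp window, 2 times in the Jup window and 6 times in the Pkp4 window, and 35.7% of all 32851 promoter windows held it. The Dsp window also held 1 CAGGTG, the E-box read by Snail and Zeb repressors (20.2% of all windows), and 1 GCCNNNGGC, the AP-2 motif (16.6% of all windows), whose first base is the last base of a GC box. In the Pkp4 window 3 of the GC boxes overlap in 1 run of capitals. A second Pkp4 window, at chr2:59161619-59161918 on the plus strand, held 1 CAGGTG and no GGGCGG. The grainyhead motifs AACCGGTT and AACCNGGTT (0.146% and 0.271% of all windows) and TATAAA (13.6%) matched in none of these windows. A match is a description of the letters, and no factor's binding was measured here.

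**Figure D1:**
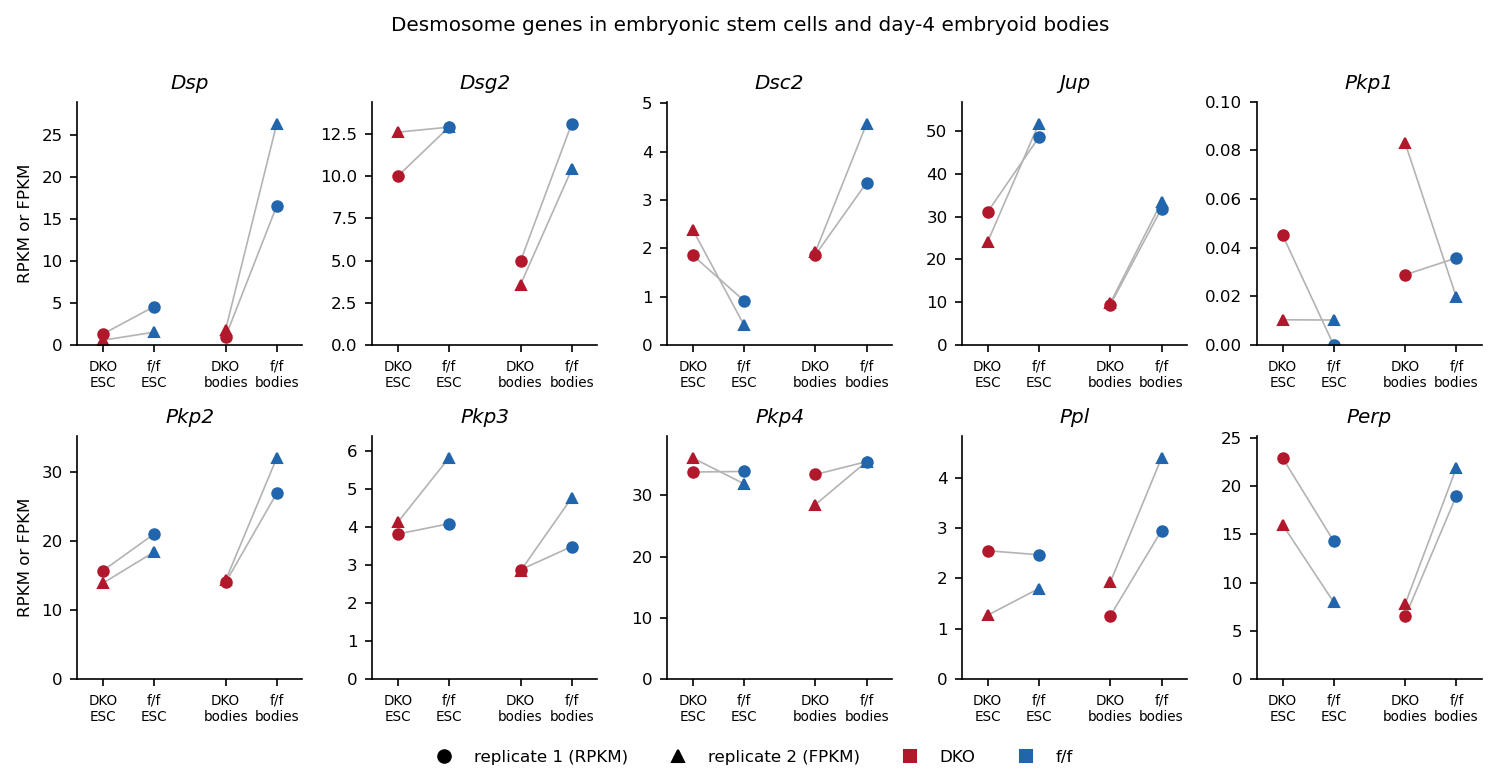
Level of each of the 10 genes (vertical axis, RPKM in replicate 1 and FPKM in replicate 2) in DKO and f/f ESC and embryoid bodies, with grey lines joining the libraries of 1 batch. Within each batch every gene but Pkp1 is lower in DKO than in f/f bodies, and Perp and Dsc2 are higher in DKO than in f/f ESC.

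The first comparison asks what loss of MLL4 did to these genes in undifferentiated ESC that already lacked MLL3. Jup, the gene of plakoglobin, which serves both desmosomes and adherens junctions, fell in DKO ESC. None of the other 8 genes tested passed the threshold: 5 differences were below 0 and 3 above. Over all 12466 genes 4.24% were called, 2.67% lower and 1.57% higher, and the median of the 9 desmosome genes was -0.18 beside 0.02 for all genes.

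Jup stood at 31.1 RPKM and 24.1 FPKM in DKO ESC, against 48.5 RPKM and 51.7 FPKM in f/f ESC. Both DKO values lay below both f/f values, and the log2 difference was -0.85 ± 0.14 (SE, n = 2 per group; limma, adjusted p = 0.0339). The call was lost without any 1 of the 4 ESC libraries (adjusted p 0.0776 to 0.2), without replicate 1 of the f/f bodies (0.0717) or replicate 2 of the f/f bodies (0.0691), which enter through the shared estimate of the spread, and the difference stayed between -1.06 and -0.63. Over all genes 0 to 9 were called without 1 of the ESC libraries and 264 or 275 without 1 of the f/f bodies, against 529 with all libraries. It was also lost with no filter on low values (0.0643), and over all alternatives adjusted p ran from 2.5e-04 to 0.2.

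Dsp, the gene of desmoplakin, was low in ESC of both genotypes. It stood at 1.32 RPKM and 0.586 FPKM in DKO ESC, against 4.59 RPKM and 1.54 FPKM in f/f ESC, with 250 and 121 reads behind the DKO values and 811 reads behind the first f/f value. The DKO value was the lower one in each batch, but the lowest f/f value was close to the highest DKO value, and the difference of -0.97 ± 0.44 on the log2 scale was not called (SE, n = 2; limma, adjusted p = 0.262).

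The cadherins did not move together. Dsg2, the desmoglein of simple epithelia, stood at 10.0 and 12.6 in DKO ESC and 12.9 and 12.9 in f/f ESC (log2 difference -0.18 ± 0.19; limma, adjusted p = 0.635). Dsc2, its desmocollin partner, stood at 1.86 and 2.39 in DKO ESC and 0.922 and 0.42 in f/f ESC. Both DKO values of Dsc2 lay above both f/f values, with a difference of 0.91 ± 0.23 on the log2 scale that was not called (SE, n = 2; limma, adjusted p = 0.0836).

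Perp, a membrane protein of desmosomes whose gene is a target of p53 and p63, had the same order. It stood at 22.9 RPKM and 16.0 FPKM in DKO ESC and at 14.3 RPKM and 7.98 FPKM in f/f ESC, with both DKO values above both f/f values (log2 difference 0.79 ± 0.27, SE, n = 2; limma, adjusted p = 0.157). The plakophilins, which cluster desmoplakin and cadherins in the plaque, and the plakin Ppl (periplakin), which binds intermediate filaments, were not called. Their log2 differences were -0.39 for Pkp2, -0.24 for Pkp3, 0.08 for Pkp4 and -0.14 for Ppl, and leaving out single ESC libraries turned the sign for Dsg2, Pkp4 and Ppl.

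Among the gene lists, which were chosen with earlier results of these data known, 1 of 11 adherens junction genes tested fell in DKO ESC. It was Cdh1, the gene of E-cadherin, at 50.7 and 32.5 in DKO ESC against 119 and 108 in f/f ESC (log2 difference -1.46 ± 0.19; limma, adjusted p = 0.0181). Of 9 transcription factors that act on epithelial genes, the grainyhead activator genes Grhl2 (-1.71 ± 0.29) and Grhl1 (-1.26 ± 0.25) fell and the mesenchymal factor gene Twist1 (1.34 ± 0.27) rose. Grhl2 stood at 4.12 and 1.71 in DKO ESC against 11.4 and 10.9 in f/f ESC. No intermediate filament gene (of 7), hemidesmosome gene (of 5) or p53 target gene (of 9) was called in ESC.

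The summed level of 10 epithelium markers was 319 and 199 in DKO ESC against 625 and 520 in f/f ESC, with none at 0 in any of the 4 libraries, and 3 of the 10 fell, Rab25 (-3.54), Esrp1 (-2.40) and Cdh1. The summed level of 10 fibroblast and feeder markers was 52.0 and 238 in DKO ESC against 37.8 and 277 in f/f ESC, so it differed more between batches than between genotypes. That of 7 keratinocyte markers was 103 and 105 in DKO ESC against 37.9 and 48.6 in f/f ESC, nearly all of it Sfn, a p53 target gene, and Sfn was not called. That of 6 trophoblast markers was 7.19 and 4.61 in DKO ESC against 56.9 and 51.7 in f/f ESC, with none at 0. Nearly all of that gap was Tfap2c, an AP-2 factor gene that fell, at 3.27 and 3.48 in DKO ESC against 53.8 and 49.5 in f/f ESC (log2 difference -3.59 ± 0.31; limma, adjusted p = 0.0116). The part of these cell types in the ESC values was not tested.

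**Figure D2:**
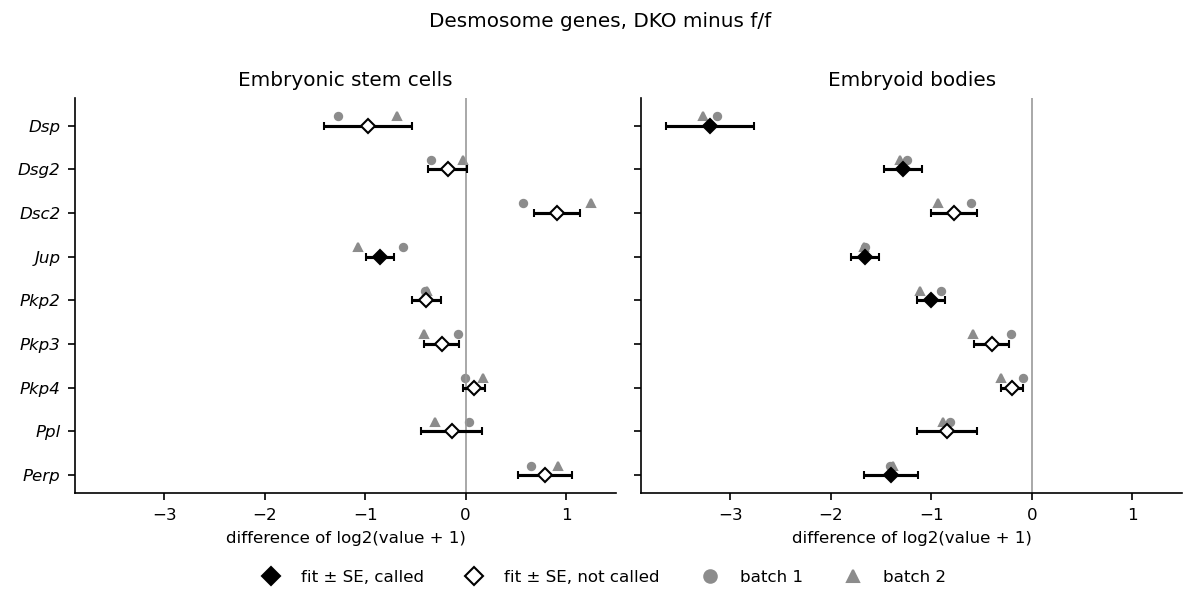
Difference of log2(value + 1) between DKO and f/f cells (horizontal axis) for the 9 genes tested, in ESC at left and embryoid bodies at right, with diamonds for the fitted difference ± SE and small marks for the 2 batches. Filled diamonds passed the threshold: Jup alone in ESC, and Dsp, Dsg2, Jup, Pkp2 and Perp in bodies, where all 9 differences lie below 0.

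The second comparison asks the same of cells after 4 days of differentiation in suspension. In DKO bodies 5 of the 9 genes tested fell, 1 or more from each layer of the junction: the cadherin Dsg2, the armadillo genes Jup and Pkp2, the plakin Dsp and the membrane protein Perp. The other 4, Dsc2, Pkp3, Pkp4 and Ppl, did not pass, with differences below 0 in both batches. Over all 12466 genes 4.44% were called, 3.61% lower and 0.826% higher. The median of the 9 genes was -1.0 beside -0.01 for all genes.

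Dsp had the largest difference. It stood at 1.01 RPKM and 1.84 FPKM in DKO bodies, against 16.6 RPKM and 26.4 FPKM in f/f bodies, and replicate 1 held 224 reads in DKO and 2970 reads in f/f. The groups were far apart in both batches, and Dsp was 9.2-fold lower on the log2(value + 1) scale (log2 difference -3.20 ± 0.44, SE, n = 2 per group; limma, adjusted p = 0.02).

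Dsg2 stood at 4.97 RPKM and 3.58 FPKM in DKO bodies, against 13.1 RPKM and 10.4 FPKM in f/f bodies. The groups did not overlap, and the log2 difference was -1.28 ± 0.19 (SE, n = 2; limma, adjusted p = 0.0246). The call was lost with no filter on low values (0.0523), and over all alternatives adjusted p ran from 7.2e-08 to 0.152. Dsc2 stood at 1.87 and 1.93 in DKO bodies and at 3.36 and 4.58 in f/f bodies, also with no overlap, but its difference of -0.77 ± 0.23 was not called (limma, adjusted p = 0.128).

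Among the plaque genes Jup was the most even. It stood at 9.44 RPKM and 9.85 FPKM in DKO bodies, against 31.9 RPKM and 33.4 FPKM in f/f bodies, and the 2 batches gave log2 differences of -1.66 and -1.67 (fitted -1.66 ± 0.14, SE, n = 2; limma, adjusted p = 0.00886). Pkp2, the plakophilin of simple epithelia and heart, stood at 14 RPKM and 14.3 FPKM in DKO bodies, against 26.9 RPKM and 32.0 FPKM in f/f bodies. Its groups lay apart as well (log2 difference -1.0 ± 0.14, SE, n = 2; limma, adjusted p = 0.0202).

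Pkp3, a plakophilin found in most desmosome-bearing epithelia, stood at 2.88 and 2.85 in DKO bodies and at 3.49 and 4.77 in f/f bodies (log2 difference -0.40 ± 0.17; limma, adjusted p = 0.253). Pkp4, a relative of the plakophilins found mostly at adherens junctions, stood at 33.4 and 28.5 in DKO bodies and at 35.5 and 35.5 in f/f bodies (log2 difference -0.20 ± 0.11; limma, adjusted p = 0.374). The 95% intervals of these 2 differences were -0.81 to 0.02 and -0.47 to 0.08, so a fall as large as that of Jup lay outside both. Pkp3 and Pkp4 each have 2 RefSeq transcripts with nearly the same reads, 189 and 185 for Pkp3 in replicate 1 of the DKO bodies, so the transcripts cannot be told apart here.

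Ppl stood at 1.26 and 1.93 in DKO bodies and at 2.95 and 4.39 in f/f bodies, with no overlap and no call (log2 difference -0.84 ± 0.30; limma, adjusted p = 0.18). Perp stood at 6.5 RPKM and 7.82 FPKM in DKO bodies, against 19 RPKM and 21.9 FPKM in f/f bodies, a difference of -1.40 ± 0.27 on the log2 scale (SE, n = 2; limma, adjusted p = 0.0452). Its call lay at the edge of the threshold and was lost with no filter on low values (0.0837), a minimum mean of 5 (0.0507), 2 other scalings (0.0574 and 0.0642) and edgeR (0.0543), with a range over all alternatives of 9.4e-04 to 0.283. Pkp1, a plakophilin of stratified epithelia, was at most 0.0828 in all 8 ESC and body libraries, on at most 5 reads, and was not tested.

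The number of genes called in bodies depended on the libraries. It was 0 without replicate 1 of the f/f bodies, 0 without replicate 2 of the f/f bodies and 1 (Jup) without replicate 1 of the DKO bodies, with each such arm then resting on 1 sample, which is assumed to vary like the other groups. Without replicate 2 of the DKO bodies it was 4, with Dsg2 lost (adjusted p 0.0545). Dsg2 was lost too without replicate 1 (0.0533) or replicate 2 (0.053) of the f/f ESC, and Perp without replicate 1 (0.0679) or replicate 2 (0.0642) of the DKO ESC. The counts over all genes moved too, to 7 of 12452, 0 of 12453 and 107 of 12459 in the first 3 of these fits and 799 of 12460 in the last, against 553 of 12466 with all libraries, so in the first 3 calls were lost over all genes and not for desmosome genes alone. All 5 differences kept their sign in every such fit, with Dsp between -3.72 and -2.68 and Jup between -1.73 and -1.59. Without the batch term none of the genes called in ESC, in bodies or over time passed, and at most 2 of all 12466 genes did in any of these comparisons.

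Other junction genes were read from the same lists. Of 11 adherens junction genes tested, 4 fell in DKO bodies and none rose, with a list median of -0.75. Cdh1 stood at 30.1 and 34.1 in DKO bodies against 151 and 152 in f/f bodies (log2 difference -2.21 ± 0.19; limma, adjusted p = 0.00886). The nectins Nectin2 (-1.46) and Nectin1 (-1.21) and the p120 catenin gene Ctnnd1 (-0.75), all partners in adherens junctions, fell as well.

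Of 7 intermediate filament genes tested, 2 fell: the simple-epithelial keratin Krt19 (log2 difference -3.02 ± 0.45) and the muscle filament gene Des (-1.04 ± 0.16). None of 5 hemidesmosome genes was called, with a list median of 0.16. Of 9 further desmosome genes only Evpl, the gene of the periplakin partner envoplakin, was high enough to test, and it was not called (log2 difference 0.34 ± 0.16; limma, adjusted p = 0.294). None of 9 p53 target genes was called, with a list median of -0.05. Perp, itself such a target, fell, and the part of p53 in its fall was not tested. Of 9 tested transcription factors that act on epithelial genes, the repressor gene Snai1 fell (-1.81) and the repressor gene Zeb1 rose (1.39), standing at 7.13 and 4.46 in DKO bodies against 1.34 and 1.77 in f/f bodies.

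Markers of other cell types moved beside the desmosome genes. The summed level of 10 epithelium markers was 224 and 278 in DKO bodies against 731 and 741 in f/f bodies, and 6 of the 10 fell, among them Cdh1, which is on the adherens junction list too. The falls of the tight junction genes Cldn3 (-3.30) and Cldn6 (-2.96), of Rab25 (-3.16) and of the splicing factor gene Esrp1 (-2.58) were the largest on that list. That of 6 primitive streak and mesoderm markers was 7.3 and 8.6 in DKO bodies, with 1 of 6 at 0 in each, against 152 and 109 in f/f bodies. All 4 streak markers high enough to test fell, T (-4.79), Fgf8 (-3.57), Mixl1 (-3.45) and Eomes (-2.21). That of 8 visceral endoderm markers was 2.49 and 2.17 in DKO bodies against 10.6 and 13.0 in f/f bodies, with Afp, a defining marker, at 0 in both f/f libraries, and both endoderm genes tested fell, Gata4 (-1.99) and Gata6 (-1.36). That of 10 fibroblast and feeder markers was 17.7 and 29.6 in DKO bodies against 27.9 and 72.1 in f/f bodies. Of these Thy1 fell (-1.02), though it stood lower in the MEF libraries (0.482 and 3.37 FPKM) than in any of these bodies. The summed level of 6 trophoblast markers was 5.47 and 5.39 in DKO bodies against 23 and 76.1 in f/f bodies. None of 3 tested was called. Most of the f/f sum was Tfap2c in replicate 1 (17.3) and Hand1 in replicate 2 (62.0). Keratinocyte markers, 7 in all, summed to 16.2 and 26.5 in DKO bodies, with 3 and 4 of 7 at 0. In f/f bodies they summed to 42.3 and 118, with 2 and 0 at 0. Nearly all of the f/f sums was Sfn (40.1 and 116), which fell (-1.76). The summed level of 6 cardiomyocyte markers was 2.33 and 5.04 in DKO bodies against 7.78 and 13.4 in f/f bodies, with neither of 2 tested called. That of 8 pluripotency markers was 2090 and 1350 in DKO bodies against 1540 and 1280 in f/f bodies. Pou5f1 fell (-0.76) and none was called higher. Of the 8 differences 5 lay above 0 and 3 below, with a list median of 0.57. The part of these cell types in the desmosome differences was not tested.

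**Figure D3:**
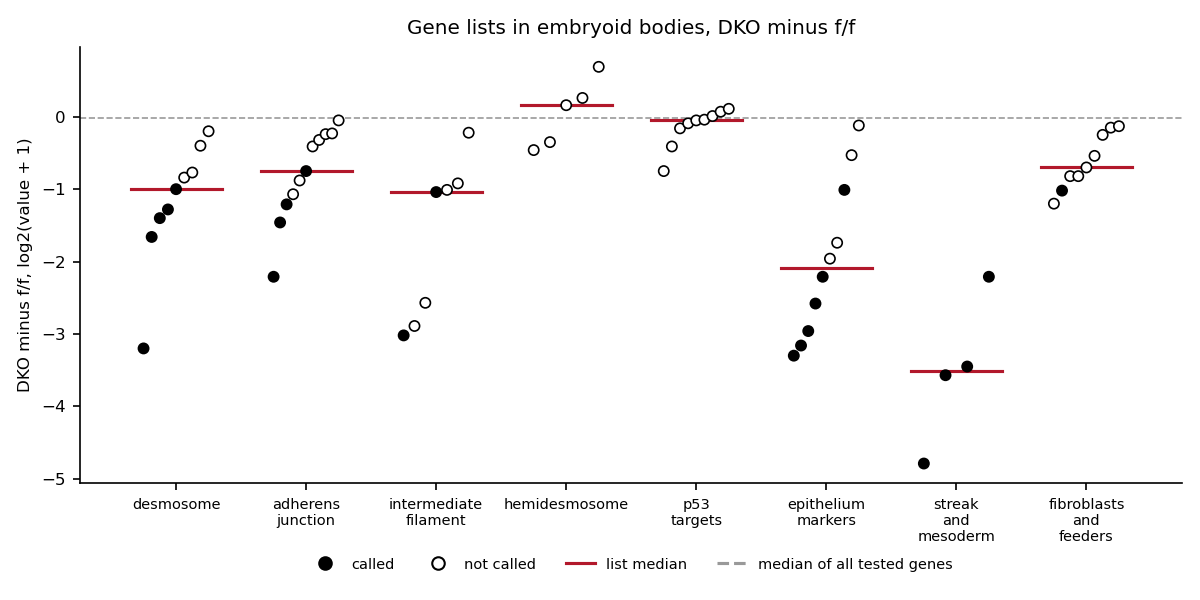
Difference of log2(value + 1) between DKO and f/f embryoid bodies (vertical axis) for each tested gene of 8 lists, with filled points past the threshold and a red bar at each list's median. The desmosome median is -1.0, the adherens junction median -0.75 and the hemidesmosome median 0.16, beside a dashed line at -0.01 for all genes.

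The third comparison follows each genotype over the 4 days, embryoid bodies against ESC. It uses the same libraries as the genotype comparisons, so the values below are the same measurements set side by side another way. In DKO cells 1 of the 9 genes was called, Jup, which fell, where 0.826% of all genes were called, 0.626% lower and 0.201% higher. In f/f cells 2 of the 9 genes rose, Dsp and Dsc2, and Jup fell, where 12.0% of all genes were called, 8.13% higher and 3.86% lower. The medians of the 9 genes were -0.17 in DKO beside 0.04 for all genes, and 0.56 in f/f beside 0.06 for all genes.

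In f/f cells Dsp stood at 16.6 RPKM and 26.4 FPKM in bodies, against 4.59 RPKM and 1.54 FPKM in ESC (log2 difference 2.54 ± 0.44, SE, n = 2; limma, adjusted p = 0.0225). Both bodies were above both ESC libraries, with a larger step in the second batch (3.43) than in the first (1.65). In DKO cells Dsp stood at 1.01 RPKM and 1.84 FPKM in bodies, against 1.32 RPKM and 0.586 FPKM in ESC, so the 2 batches differed in direction (log2 difference 0.32 ± 0.44; limma, adjusted p = 0.737).

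Dsc2 in f/f cells stood at 3.36 RPKM and 4.58 FPKM in bodies, against 0.922 RPKM and 0.42 FPKM in ESC, all bodies above all ESC (log2 difference 1.58 ± 0.23, SE, n = 2; limma, adjusted p = 0.0175). In DKO cells it stood at 1.87 and 1.93 in bodies and at 1.86 and 2.39 in ESC (log2 difference -0.10 ± 0.23; limma, adjusted p = 0.848). The level of Dsc2 in DKO cells of both stages lay between those of f/f ESC and f/f bodies.

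Jup was lower in bodies than in ESC of both genotypes. The log2 difference was -1.42 ± 0.14 in DKO cells (SE, n = 2; limma, adjusted p = 0.0291) and -0.60 ± 0.14 in f/f cells (limma, adjusted p = 0.0444). Dsg2 in DKO cells stood at 4.97 and 3.58 in bodies and at 10.0 and 12.6 in ESC, just outside the threshold (log2 difference -1.23 ± 0.19; limma, adjusted p = 0.0552), and in f/f cells its difference was -0.14 ± 0.19. Perp in DKO cells stood at 6.5 and 7.82 in bodies and at 22.9 and 16.0 in ESC (-1.31 ± 0.27; limma, adjusted p = 0.0867), and in f/f cells at 19 and 21.9 in bodies and at 14.3 and 7.98 in ESC (0.87 ± 0.27; limma, adjusted p = 0.0824).

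The calls over time rested on few libraries. In f/f cells 0 of the 9 genes were called without any 1 of the 4 f/f libraries, replicates 1 and 2 of ESC and of bodies, where 0 to 3 of all genes were called, though Dsp stayed between 1.88 and 3.21. In DKO cells 0 were called without any 1 of the 8 libraries of the fit, DKO and f/f, ESC and bodies, where 0 to 111 of all genes were called, with Jup between -1.63 and -1.20. The f/f call of Jup was lost without replicate 1 of the DKO bodies as well (0.0501), with no filter on low values (0.0657) and with quantile scaling (0.0526), over a range of 0.00357 to 0.251 in all alternatives, and its DKO call with no filter (0.0699), over a range of 3.8e-12 to 0.338. The summed level of the 10 fibroblast and feeder markers was 17.7 and 29.6 in DKO bodies against 52.0 and 238 in DKO ESC, and 27.9 and 72.1 in f/f bodies against 37.8 and 277 in f/f ESC. Streak markers stood at 7.3 and 8.6 in DKO bodies against 9.17 and 5.15 in DKO ESC, with none of 4 tested called, and at 152 and 109 in f/f bodies against 19.4 and 2.58 in f/f ESC, where all 4 rose, T (4.11), Mixl1 (3.09), Fgf8 (3.07) and Eomes (2.94). The visceral endoderm genes Gata4 (1.65) and Gata6 (1.41) rose in f/f bodies, and neither was called in DKO cells. Of 8 pluripotency markers Tdgf1 (-1.61) fell in DKO bodies, and Esrrb (-3.18) and Zfp42 (-2.91) fell in f/f bodies. The epithelium markers Cldn3 (1.99) and Spint1 (0.72) rose in f/f bodies, and none of 10 was called in DKO cells. Sfn (-2.33) and Thy1 (-1.31), which is on the fibroblast and feeder list, fell in DKO bodies. Thy1 stood at 21.0 and 24.1 in DKO ESC. In the MEF libraries it stood at 0.482 FPKM (labelled DKO) and 3.37 FPKM (f/f). Whether its fall reflects feeders was not tested. Tfap2c (-2.15) and the feeder collagen Col3a1 (-1.65) fell in f/f bodies. The part of these cell types in the desmosome differences was not tested.

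Adhesion and filament genes moved in f/f cells as well. Of 11 adherens junction genes 3 rose in f/f bodies, the N-cadherin gene Cdh2 (log2 difference 1.5 ± 0.27), Nectin1 (1.26 ± 0.22) and Ctnnd1 (0.58 ± 0.12), and none was called in DKO cells. The grainyhead gene Grhl3 fell in bodies of both genotypes, with log2 differences of -1.78 ± 0.23 in DKO cells and -1.48 ± 0.23 in f/f cells, and Grhl1 fell in f/f bodies (-1.21 ± 0.25). The hemidesmosome gene Cd151 rose (0.60 ± 0.14) and the p53 target gene Sesn2 fell (-1.03 ± 0.19) in f/f bodies. Among 7 intermediate filament genes the keratins Krt18 (log2 difference 3.26 ± 0.58), Krt8 (3.04 ± 0.64) and Krt19 (2.61 ± 0.45) rose in f/f bodies, and Krt17 fell (-2.35 ± 0.33). In DKO cells none of the 7 intermediate filament genes was called. Krt8 stood at 5.7 and 26.5 in DKO bodies and at 10.1 and 14.4 in DKO ESC, while f/f bodies had 47.4 and 210, and f/f ESC had 13.9 and 9.17. Krt8 and Krt18 have near-identical copies in the genome, and how shared reads were counted is not given in the sources used here.

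**Figure D4:**
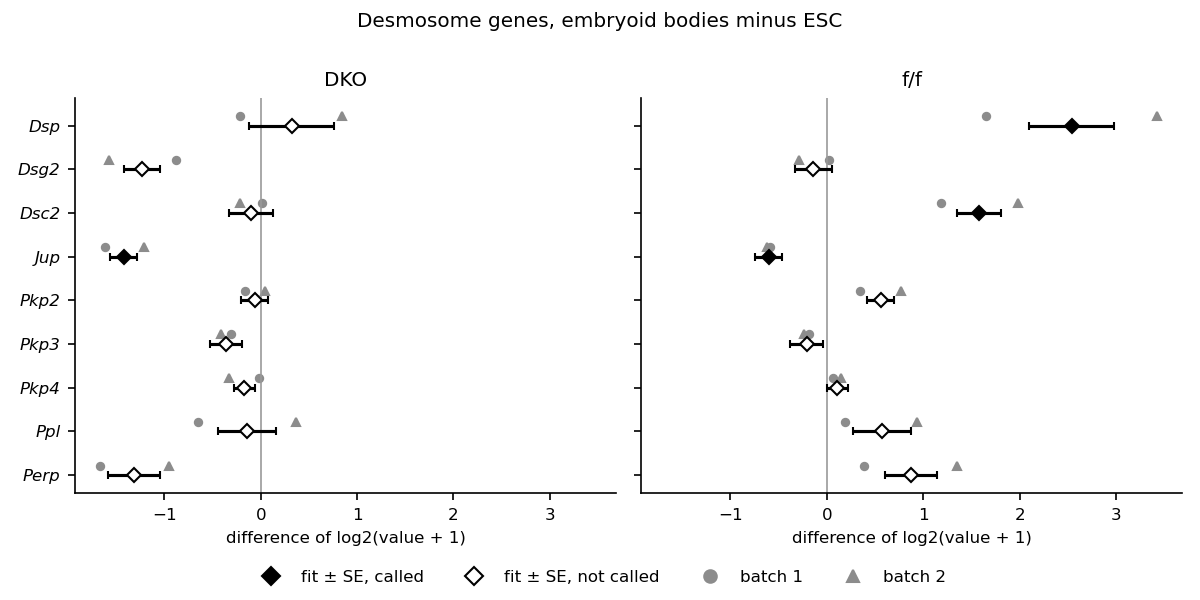
Difference of log2(value + 1) between embryoid bodies and ESC (horizontal axis) for the 9 genes tested, in DKO cells at left and f/f cells at right, with diamonds for the fitted difference ± SE and small marks for the 2 batches. Jup is the filled diamond in DKO cells, and Dsp, Dsc2 and Jup are filled in f/f cells, with Dsp at 2.54.

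Whether the DKO effect differed between bodies and ESC was tested as an interaction, the effect in bodies minus the effect in ESC. No gene of 12466 was called (0% of all genes), so none of the 9 was. All 9 differences were below 0, and 6 of the 9 had an unadjusted p under 0.05, as did 1704 of all 12466 genes. Perp had a difference of -2.18 ± 0.38 (SE; limma, adjusted p = 0.119), with -2.06 and -2.30 in the 2 batches. Dsp had -2.23 ± 0.62 (limma, adjusted p = 0.224) and Dsc2 -1.68 ± 0.32 (limma, adjusted p = 0.13). DESeq2 on reads called Dsg2, Dsc2 and Perp and 441 of 15438 genes in all, and edgeR called none of the 9 and 0 of 15255 genes. Limma with a batch term within each stage called Dsp, Dsg2 and Perp and 353 of 12466 genes. So the effect in bodies was not shown by the main test to differ from that in ESC.

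In fibroblasts and day-20 cells each value rests on 1 library, so no test was made. The day-20 libraries differed in Pou5f1, the gene of Oct4, which was one of the delivered factors. It stood at 0.118 FPKM in the day-20 library labelled DKO against 19.8 FPKM in f/f, so that the library labelled DKO lay at the level of the MEF libraries (0.0906 FPKM in that labelled DKO and 0.12 FPKM in f/f). A difference was counted when it passed 2-fold on the log2(FPKM + 1) scale. Counting intervals of 95% are given for ratios of FPKM. Reads behind FPKM were rebuilt from depth and transcript length, and the intervals cover counting error only.

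Fibroblasts had a reduced set of these genes. In both MEF libraries 4 of the 10 genes reached 1 FPKM, the armadillo genes Jup, Pkp2 and Pkp4 and the membrane gene Perp, while Dsp, Dsg2, Dsc2, Pkp1, Pkp3 and Ppl stayed below it. Dsp stood at 0.0436 FPKM (16 reads) in the MEF library labelled DKO and 0.108 FPKM (30 reads) in f/f. Jup stood at 12.5 FPKM in the library labelled DKO and 12.4 FPKM in f/f, Pkp2 at 5.15 and 5.69 FPKM, and Pkp4 at 16.8 and 20.5 FPKM. These 3 genes differed between the libraries by less than 2-fold.

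Perp was the only one of the 10 genes past 2-fold between the MEF libraries, and so 1 of the 4 reaching 1 FPKM in either library, where 9.63% of all 12332 genes reaching 1 FPKM passed, 5.67% lower and 3.97% higher in the library labelled DKO. It stood at 5.21 FPKM in the library labelled DKO against 24.4 FPKM in f/f, a ratio of 0.214 (interval 0.19 to 0.24). Ppl, below 1 FPKM in both, stood at 0.0375 FPKM (9 reads) in the library labelled DKO and 0.81 FPKM (147 reads) in f/f, a ratio of 0.0463 (interval 0.0207 to 0.0903). With a pseudocount of 0.1 in place of 1, 4 of the 10 genes passed 2-fold, where 11.6% of all 24284 genes listed did, and 1 of the 4 reaching 1 FPKM, where 14% did.

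At day 20 desmoplakin, plakophilin 1 and Perp RNA stood far lower in the library labelled DKO than in f/f. Of the 10 genes 3 were past 2-fold, all lower in the library labelled DKO. They were 3 of the 5 reaching 1 FPKM in either library, where 20.7% of all 12943 genes reaching it passed, 12.2% lower and 8.51% higher. Dsp stood at 0.0312 FPKM (7 reads) in the library labelled DKO against 3.81 FPKM (913 reads) in f/f, which was 122-fold lower (interval 59 to 305). Pkp1 stood at 0.0381 FPKM (4 reads) in the library labelled DKO against 7.75 FPKM (870 reads) in f/f, which was 204-fold lower (interval 79.2 to 749). Perp stood at 0.45 FPKM (20 reads) in the library labelled DKO against 13.9 FPKM (660 reads) in f/f, which was 30.9-fold lower (interval 19.8 to 50.9).

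Most of the low members pointed the same way at day 20. With a pseudocount of 0.1, 7 of the 10 genes passed 2-fold, where 21.3% of all 24284 genes listed did, and 3 of the 5 reaching 1 FPKM, where 27% did. Dsc2 had 0 reads in the library labelled DKO against 0.86 FPKM (95 reads) in f/f, at least 29.7-fold lower when the floor is set at 3 reads in that library, while the counting interval used for the other genes gives a bound of 23.6-fold. Dsg2 stood at 0.224 FPKM in the library labelled DKO and 0.726 FPKM in f/f, a ratio of 0.308 (interval 0.198 to 0.466), and Ppl at 0.0612 FPKM and 0.274 FPKM. Pkp3 had 1 read in the library labelled DKO and 24 reads in f/f, a ratio of 0.0411 (interval 0.00108 to 0.273).

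The armadillo genes that fibroblasts carried differed by less than 2-fold between the day-20 libraries. Jup stood at 9.17 FPKM in the library labelled DKO and 12.6 FPKM in f/f, Pkp4 at 7.91 and 9.86 FPKM, and Pkp2 at 0.65 and 0.678 FPKM. The ratio for Pkp2 was 0.959 with an interval of 0.624 to 1.47, on 44 and 49 reads.

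**Figure D5:**
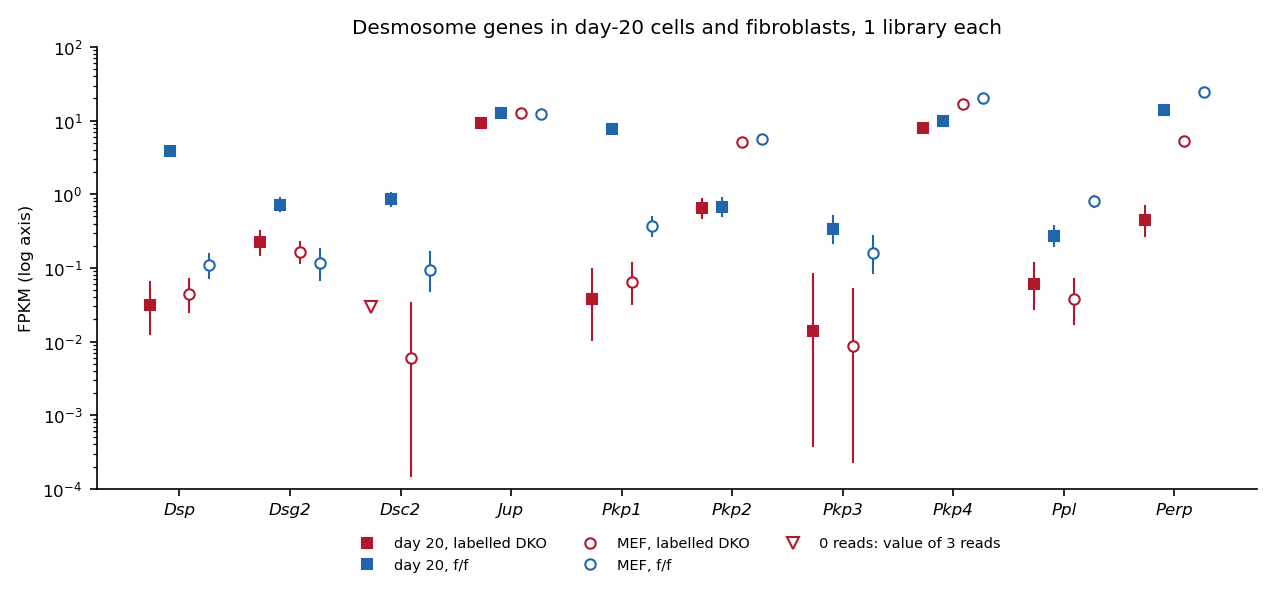
FPKM on a log axis of the 10 genes in day-20 cells (squares) and fibroblasts (circles), 1 library per group, with lines for 95% counting intervals and a triangle at the value of 3 reads for Dsc2, which had 0 reads. The day-20 f/f library stands at 3.81 FPKM for Dsp and 7.75 FPKM for Pkp1, and the other 3 libraries lie below 1 FPKM for both.

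Against the fibroblasts, day-20 f/f cells had more Dsp and Pkp1 and less Pkp2. Dsp was 35.2-fold higher (interval 24.5 to 52.5) and Pkp1 21.0-fold higher (interval 15.7 to 28.6) at day 20 than in MEF of the f/f genotype. Pkp2 stood at 0.678 FPKM at day 20 against 5.69 FPKM in f/f MEF, and this made 3 of the 10 genes past 2-fold, or 3 of the 6 reaching 1 FPKM in either library, where 13.6% of all 12836 genes passed, 7.83% higher and 5.77% lower. In the libraries labelled DKO 2 of the 10 genes were past 2-fold, or 2 of the 4 reaching 1 FPKM, both lower at day 20, where 8.51% of all 12192 genes passed, 3.88% lower and 4.63% higher. They were Pkp2, at 0.65 FPKM at day 20 against 5.15 FPKM in MEF, and Perp, at 0.45 FPKM at day 20 against 5.21 FPKM in MEF. Pkp4 fell just short of the count in both pairs, with FPKM ratios of 0.48 in f/f (interval 0.447 to 0.514) and 0.471 in the libraries labelled DKO (0.436 to 0.508). Among genes below 1 FPKM in both f/f libraries, Dsc2, Dsg2 and Pkp3 were higher at day 20 and Ppl lower. Their ratios were 9.15, 6.33, 2.15 and 0.338.

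The make-up of the plakophilins differed between the libraries. Pkp1 made up 41.6% of the summed FPKM of Pkp1 to Pkp4 in the day-20 f/f library, 0.442% in the day-20 library labelled DKO and at most 1.38% in the other 10 libraries. Pkp4 was the largest share in every library, from 49.1% in replicate 2 of the f/f bodies to 91.8% in the day-20 library labelled DKO. The share of Pkp2 was 29.4% and 25.7% in DKO ESC against 35.5% and 32.8% in f/f ESC. In bodies it was 27.8% and 31.3% in DKO against 40.8% and 44.3% in f/f. It was lower in DKO within each batch of ESC and bodies. In the libraries labelled DKO it was the higher one elsewhere, at 23.4% against 21.3% in f/f MEF and at 7.55% against 3.64% in f/f at day 20.

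Genes of both stratified and simple epithelium stood higher beside Pkp1 and Dsp in the day-20 f/f library. Of 9 intermediate filament genes 6 were past 2-fold lower and 1 higher in the library labelled DKO. Of all genes reaching 1 FPKM in either library, 12.2% were past 2-fold lower and 8.51% higher. The simple-epithelial keratin Krt8 stood at 0.118 FPKM in the library labelled DKO against 32.0 FPKM in f/f, which was 271-fold lower. Its partner Krt18 was listed at 0 in the library labelled DKO against 2.94 FPKM in f/f, and Cdh1 at 0 against 3.24 FPKM in f/f. The basal keratins Krt14 and Krt17 stood at 0.154 and 0.113 FPKM in the library labelled DKO against 55.9 and 28.2 FPKM in f/f. The hemidesmosome integrin Itgb4 stood at 0.325 FPKM in the library labelled DKO against 27.3 FPKM in f/f, and the corneodesmosin gene Cdsn at 2.22 FPKM against 17.0 FPKM in f/f. Evpl stood at 0.0601 FPKM in the library labelled DKO against 1.7 FPKM in f/f. The summed level of 7 keratinocyte markers was 2.54 FPKM in the library labelled DKO, with 2 of 7 at 0, against 75.4 FPKM in f/f, with none at 0, but Krt5, the usual partner of Krt14, was at 0.602 FPKM and Krt15 at 0.0232 FPKM in f/f. The stratified-epithelium cadherins were near 0 in f/f, with Dsg1a at 0.0568 FPKM, Dsc3 at 0.0299 FPKM and Dsc1 at 0, while Dsg3 stood at 1.1 FPKM.

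Perp is a p53 target gene, and 5 of 10 such genes were past 2-fold lower and 2 higher in the day-20 library labelled DKO. Of all genes reaching 1 FPKM in either day-20 library, 12.2% were past 2-fold lower and 8.51% higher. Cdkn1a, the p21 cell cycle inhibitor gene, stood at 21.7 FPKM in the library labelled DKO against 109 FPKM in f/f, and Ccng1 at 11.2 against 74.2 FPKM. The 2 higher genes were Fas, at 12.5 FPKM in the library labelled DKO against 3.84 FPKM in f/f, and Sesn2, at 35.9 against 11.7 FPKM. Between the MEF libraries 1 of 10 passed, where 9.63% of all genes reaching 1 FPKM did. It was Ccng1, at 17.8 FPKM in the library labelled DKO against 37.9 FPKM in f/f. The p53 relative Trp63, an epidermal factor gene, stood at 0.868 FPKM in the day-20 library labelled DKO and 1.43 FPKM in f/f.

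Of 10 epithelium markers, 6 were at 0 in the day-20 library labelled DKO and none in f/f, with sums of 6.64 FPKM in the library labelled DKO and 14.3 FPKM in f/f. Spint1 ran against the others, at 6.24 FPKM in the library labelled DKO and 0.65 FPKM in f/f, and without it, a choice made after its values were seen, the sums were 0.406 FPKM in the library labelled DKO and 13.6 FPKM in f/f. The 10 fibroblast markers summed to 9640 FPKM in the library labelled DKO and 13300 FPKM in f/f. Past 2-fold lower were 6 of them, where 12.2% of all genes reaching 1 FPKM were. Thy1 stood at 1.08 FPKM in the library labelled DKO against 120 FPKM in f/f, and Lum at 1.75 FPKM against 168 FPKM in f/f. The 8 pluripotency markers summed to 10.5 FPKM in the library labelled DKO and 40.0 FPKM in f/f. Most of that gap was Pou5f1, at 0.118 FPKM in the library labelled DKO and 19.8 FPKM in f/f, and Sox2, at 0.243 and 9.36 FPKM. Oct4 and Sox were among the delivered factors, and these values do not tell delivered copies from the cells' own genes. Nanog ran the other way, at 9.68 FPKM in the library labelled DKO and 5.49 FPKM in f/f. It made up most of the sum in the library labelled DKO. In the MEF libraries Nanog already stood at 7.17 FPKM (labelled DKO) and 7.26 FPKM (f/f). Among adherens junction genes Cdh2 stood at 2.73 FPKM in the library labelled DKO against 7.16 FPKM in f/f and Vcl at 192 FPKM against 92.2 FPKM in f/f. The repressor genes Zeb2 and Snai2 stood at 28.7 and 88 FPKM in the library labelled DKO against 6.12 and 28.7 FPKM in f/f, and Snai1 at 20.1 FPKM against 74 FPKM in f/f. With 1 library per genotype, genotype and any other difference between the cultures cannot be told apart, and the part of these cell types in the desmosome values was not tested.

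Across the 8 libraries with FPKM values the 10 genes had different orders of level. Dsp was highest in f/f bodies (26.4 FPKM), then in day-20 f/f cells (3.81), DKO bodies (1.84), f/f ESC (1.54) and DKO ESC (0.586), and lowest in f/f MEF (0.108), DKO-labelled MEF (0.0436) and DKO-labelled day-20 cells (0.0312 FPKM). The counting intervals of the last 2 overlap, while the ESC and body values have only 1 FPKM library each. Dsc2, Pkp2 and Ppl were also highest in f/f bodies, Dsg2, Jup and Pkp3 in f/f ESC, Pkp4 in DKO ESC, Perp in f/f MEF and Pkp1 in day-20 f/f cells. Some of these first places were narrow. Dsg2 stood at 12.9 FPKM in f/f ESC and 12.6 FPKM in DKO ESC, with overlapping counting intervals. Pkp4 stood at 36.1 FPKM in DKO ESC and 35.5 FPKM in f/f bodies. In replicate 1 of ESC and bodies both genes were highest in f/f bodies (13.1 and 35.5 RPKM). The lowest value was in the day-20 library labelled DKO for Dsp, Dsc2, Jup, Pkp2, Pkp4 and Perp. For Pkp2 the day-20 f/f library lay within counting error of it (ratio interval 0.624 to 1.47). For Dsc2 the MEF library labelled DKO did too, with 1 read against 0 (interval 0 to 63.7).

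The levels of Dsg2 and Pkp3 followed each other most closely among the 10 genes, with Pearson's r of 0.98 over the 8 FPKM libraries on log2(FPKM + 1), followed by Pkp2 and Pkp4 with r of 0.97. With Dsp, r ran from 0.18 for Pkp1 to 0.79 for Dsc2. The genes most like Dsp among 12303 ranked were Bicra (r of 0.962), which encodes a subunit of a SWI/SNF chromatin remodelling complex, Tmem184a (0.951), Dok2 (0.950), an adaptor of tyrosine kinase signalling, Mogat2 (0.948), an acyltransferase of fat absorption, and Ms4a4d (0.944). Dok2 stood at 20.8 FPKM in f/f bodies and 3.14 FPKM in day-20 f/f cells and at 0.865 FPKM in DKO bodies. Over the 4 RPKM libraries, which were not used for the ranking, r with Dsp was 0.640 for Bicra and 0.964 to 0.983 for the other 4. They hold the same ESC and body groups as 4 of the FPKM libraries, and Dsp was again highest in f/f bodies (16.6 RPKM). A high r there is therefore not a separate check of the ranking. The FPKM and RPKM libraries share cell types and cultures, so the correlations describe them and carry no test.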

How the data were processed

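RNA was taken with Trizol and poly(A) selection on Dynabeads and sequenced as Illumina TruSeq libraries, per the labels' protocols. For replicate 1 of ESC and bodies the authors deposited read counts with RPKM for each RefSeq transcript (file headers). For replicate 2 and for the MEF and day-20 libraries the authors deposited FPKM alone, by Entrez gene (file headers). Builds and tools in the submitters' processing notes are mm9, bedtools 2.16, SICER 1.1 and CASAVA 1.8.2. Aligner, annotation release, strand setting and handling of shared reads were not given in the sources used here. Overlapping genes and near-identical copies are therefore uncertain.

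Of 29082 transcripts, 28436 matched a gene in a RefSeq table, and each gene was read from its transcript with most reads. Depth of the FPKM libraries was recovered from steps of low values, of which 90.5% to 92.1% were whole reads within 0.02 reads. Libraries of a batch deviated together from their group means (correlations of 0.864 to 0.954 across genes between groups), so the replicate number, which marks the batch and file type, entered the model as a block.

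The main test was limma 3.58.1 in R 4.3.3, two-sided, with a mean-variance trend on log2(value + 1) over 8 libraries. It had 4 groups and the batch as terms and 3 residual beside 3.27 prior degrees of freedom. Genes with a mean of at least 1 were tested, and the method was tested on simulated data. Because replicate 2 has no deposited counts, edgeR 4.0.16 and DESeq2 1.42.0 on reads recovered from FPKM were alternatives. Other alternatives were the pseudocount, the filter, the scaling, the batch term, the sum of transcripts and leaving out each library. The members and lists were chosen with earlier results of these data known. The text names all 10 genes, Kmt2c and Kmt2d, the 5 genes most like Dsp and, from the lists, genes past the threshold that were among the 4 with the largest change of their list in a comparison. Not every such gene is named, and the rest enter as counts. Afp, Krt5, Krt15, Trp63, Evpl in bodies, Nanog and Fas at day 20 and the stratified-epithelium cadherins fall outside this rule. They were chosen after their values were seen.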

Additional observations from a re-analysis of the deposited data

How the results depend on the processing

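Directions of the called genes did not turn in any alternative run. Counts of genes called moved more. The share of all genes called stands in brackets. In ESC 1 of 9 genes was called (4.24%), 0 with no filter on low values (1.06%), 0 with no replicate block (0%), 3 with the batch as a block within each stage (11.5%), 2 with DESeq2 (9.66%) and 0 to 1 when 1 library was left out (0% to 5.96%). In DKO against f/f bodies 5 were called (4.44%), 3 with no filter (1.48%), 0 with no replicate block (0.016%) and 0 to 4 with 1 library left out (0% to 6.41%). In bodies against ESC of DKO cells 1 was called (0.826%), 0 with no filter (0.00513%), 2 with median-of-ratios scaling (0.915%), 2 with quantile scaling (0.866%), 0 with no replicate block (0.00802%), 3 with the block within each stage (7.11%), 2 with edgeR (0.951%), 3 with DESeq2 (6.17%) and 0 with any library left out (0% to 0.891%). In f/f cells 3 were called (12.0%), 0 with no replicate block (0%), 6 with the block within each stage (26%) and 0 to 3 with 1 library left out (0% to 15.1%). For the interaction 0 were called (0%), 3 with the block within each stage (2.83%), 3 with DESeq2 (2.86%) and 0 with any library left out (0%).

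Past 2-fold in single libraries, 1 gene in MEF became 4 with a pseudocount of 0.1, and 3 at day 20 became 7. The share of all 24284 genes listed was 11.6% in MEF and 21.3% at day 20 with 0.1, against 4.89% and 11% with 1. With a pseudocount of 5 the counts were 1 in MEF (1.85%) and 2 at day 20 (4.66%). For day 20 against MEF, 2 genes in DKO (4.27% of genes listed) became 0 with a pseudocount of 5 (1.35%), and 3 in f/f (7.19%) became 7 with 0.1 (15.1%) and 1 with 5 (2.91%). In the limma fits, leaving out a library lowered the number of all genes called in some comparisons and raised it in others. The cause of these changes was not tested for any setting.

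The uncalled Pkp4 difference over time in f/f cells was 0.00 with edgeR and with DESeq2, just below 0 before rounding, against 0.11. With 1 library left out, uncalled differences that turned sign ran from -0.45 to 0.09 (Dsg2), -0.01 to 0.18 (Pkp4) and -0.55 to 0.27 (Ppl) for DKO against f/f ESC. They ran from -0.11 to 0.74 (Dsp), -0.23 to 0.03 (Dsc2), -0.16 to 0.04 (Pkp2) and -0.55 to 0.27 (Ppl) for DKO bodies against ESC, and from -0.28 to 0.01 (Dsg2) for f/f bodies against ESC. Of 916 values of single genes under alternatives, 797 kept direction and side of the threshold or moved within counting error, 66 lost the threshold, 20 came past it, 21 moved beyond counting error and 12 turned sign. Rescaling moved the median of all genes by at most 0.06. Depth limits Dsp, Dsc2, Pkp1, Pkp3 and Ppl in the MEF and day-20 libraries labelled DKO, where at most 16 reads stand behind a value. In f/f MEF it limits Dsc2 (12 reads) and Pkp3 (13 reads).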
